A study of Mus musculus with 12 samples.

Results

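Liver transcripts of secreted liver hormones (hepatokines) and of the leptin receptor were followed in mice with and without Hdac6 and with and without dexamethasone. The genes were chosen by name, with earlier results of these data known: Fgf21, Fst, Gdf15, Angptl4, Ahsg, Fetub, Lect2 and Lepr. Each was represented by the array probe set that carries its symbol alone in the probe annotation, and by the brightest such probe set where a gene has more than 1. This found 7 of the 8 genes, each with 1 probe set, among 19937 genes on the array with a probe set of 1 symbol. Gdf15 had no such probe set in the annotation table and was not analysed here. All 7 passed the filter on low values, as did 17904 genes in all.

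The animals were male C57Bl/6 mice in 4 groups of 3, with separate animals and 1 array for each. Knockout mice (C57Bl/6 HDAC6 Y/-, in which males carry no working copy of the X-linked Hdac6) received dexamethasone or vehicle, and wild-type mice received dexamethasone or vehicle. Dexamethasone, a synthetic glucocorticoid, was injected intraperitoneally at 1 mg/kg over 3 weeks, and all mice fed freely. The labels give neither the age of the animals nor the hour of collection, and the whole liver was sampled, so fewer cells of a type and less RNA per cell cannot be told apart.

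Hepatokines are proteins that liver cells release into the blood, where they act on other organs. Fgf21 is the fasting hormone that signals through FGF receptors with the co-receptor beta-klotho, and Angptl4 blocks lipoprotein lipase, the enzyme that frees fatty acids from circulating triglyceride. Fst encodes follistatin, which traps activins; Ahsg and Fetub encode the fetuins, plasma proteins of the cystatin superfamily; Lect2 encodes a chemotactic protein; and Lepr encodes the receptor for leptin, the satiety hormone of fat, part of which circulates as a soluble leptin-binding protein.

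Values below are log2 array intensities as deposited, so a difference of 1 means a 2-fold change. A level belongs to its own probe set and is not set against that of another gene. The array medians ran from 3.132 to 3.239 and the 20th percentiles from 2.172 to 2.23. All 11 hepatocyte markers measured lay above the median on every array, for example albumin at 13.03 to 13.13. Hdac6 itself was 3.62 to 3.89 in knockout dexamethasone livers, 3.90 to 4.40 in knockout vehicle livers, 5.86 to 6.18 in wild-type dexamethasone livers and 6.08 to 6.43 in wild-type vehicle livers, so knockout and wild-type arrays did not overlap. A set of 4 arrays stood apart: knockout vehicle 3, wild-type dexamethasone 3 and wild-type vehicle 1 and 2 carried transcripts of the exocrine pancreas, with 19 of 19 pancreas markers higher in each of the 4 than in each of the other 8. The mean over these markers was 7.07 to 9.17 in the 4 arrays and 2.90 to 3.22 in the 8. Results are therefore also given without the 4 arrays, which leaves 1 wild-type vehicle array that is assumed to vary like the other groups. Fewer of all genes were called under dexamethasone in that fit, so a call lost there is not by itself a result about these genes.

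Start-site windows of 300 bases, from 250 before to 50 after the start, were taken from RefSeq on build GRCm38.p6, and 6 of the 8 genes had 9 windows between them. Angptl4 and Fst had no entry. The windows of Lepr are shown because its transcript was higher under dexamethasone in both genotypes, and that of Ahsg because it holds the hexamer bound by the glucocorticoid receptor. The Lepr windows are chr4:101717157-101717456 and chr4:101717656-101717955, both on the + strand, and the Ahsg window is chr16:22891765-22892064 on the + strand. All are written from 5′ to 3′, and capitals mark AGAACA.
Lepr window 1: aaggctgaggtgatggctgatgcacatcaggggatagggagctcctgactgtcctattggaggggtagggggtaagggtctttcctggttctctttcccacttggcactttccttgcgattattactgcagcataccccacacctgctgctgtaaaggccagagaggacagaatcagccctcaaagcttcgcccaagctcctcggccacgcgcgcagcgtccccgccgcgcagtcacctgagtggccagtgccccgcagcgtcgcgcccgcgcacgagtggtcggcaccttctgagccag
Lepr window 2: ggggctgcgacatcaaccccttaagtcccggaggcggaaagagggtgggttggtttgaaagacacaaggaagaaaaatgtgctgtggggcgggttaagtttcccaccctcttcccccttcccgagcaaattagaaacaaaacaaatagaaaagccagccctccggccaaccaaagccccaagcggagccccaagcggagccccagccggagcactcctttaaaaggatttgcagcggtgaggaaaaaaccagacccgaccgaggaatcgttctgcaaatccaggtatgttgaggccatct
Ahsg window: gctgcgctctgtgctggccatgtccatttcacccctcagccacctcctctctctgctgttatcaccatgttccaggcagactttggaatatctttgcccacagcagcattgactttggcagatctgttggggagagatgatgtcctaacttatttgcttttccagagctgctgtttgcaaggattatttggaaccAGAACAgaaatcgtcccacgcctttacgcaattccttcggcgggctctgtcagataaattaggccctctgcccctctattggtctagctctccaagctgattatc
Searched on both strands, AGAACA occurred in 2 of the 9 windows, that of Ahsg with its first base at -55 from the start and the second window of Fetub at -19, and in neither window of Lepr. Of all 32851 windows in the table, 19.0% hold it. The full palindrome, AGAACA followed after 3 bases by TGTTCT, was in 0 of the 9 and in 0.00913% of all windows, and TTCNNNGAA, the core that STAT factors bind, was in 0 of the 9 and in 8.3% of all. AGGTCA, the hexamer of many nuclear receptors, was in 1 of the 9, in a window of Gdf15, and in 16.3% of all. TATAAA, searched on the gene's own strand, was in 2 of the 9, at -28 in Fgf21 and at -31 in the first window of Fetub, and in 8.32% of all. A match describes letters in this window and says nothing of whether a factor binds there.

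Angptl4 and Lepr were higher under dexamethasone in knockout and in wild-type livers, and the other 5 transcripts did not pass the test in either. Angptl4 was 1.84-fold higher in the knockout and 2.19-fold higher in wild type, and Lepr was 1.55-fold and 1.60-fold higher. With limma's moderated test and Benjamini-Hochberg adjustment over all 17904 genes at a threshold of 0.05, 2 of 7 were called in the knockout, against 8.29% of all genes, and 2 of 7 in wild type, against 11.5%. Both calls in each genotype were increases, a direction called for 4.38% of all genes in the knockout and for 4.57% in wild type. Because the genes were chosen with earlier results of these data known, setting them beside all genes is a description without a test.

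**Figure D1:**
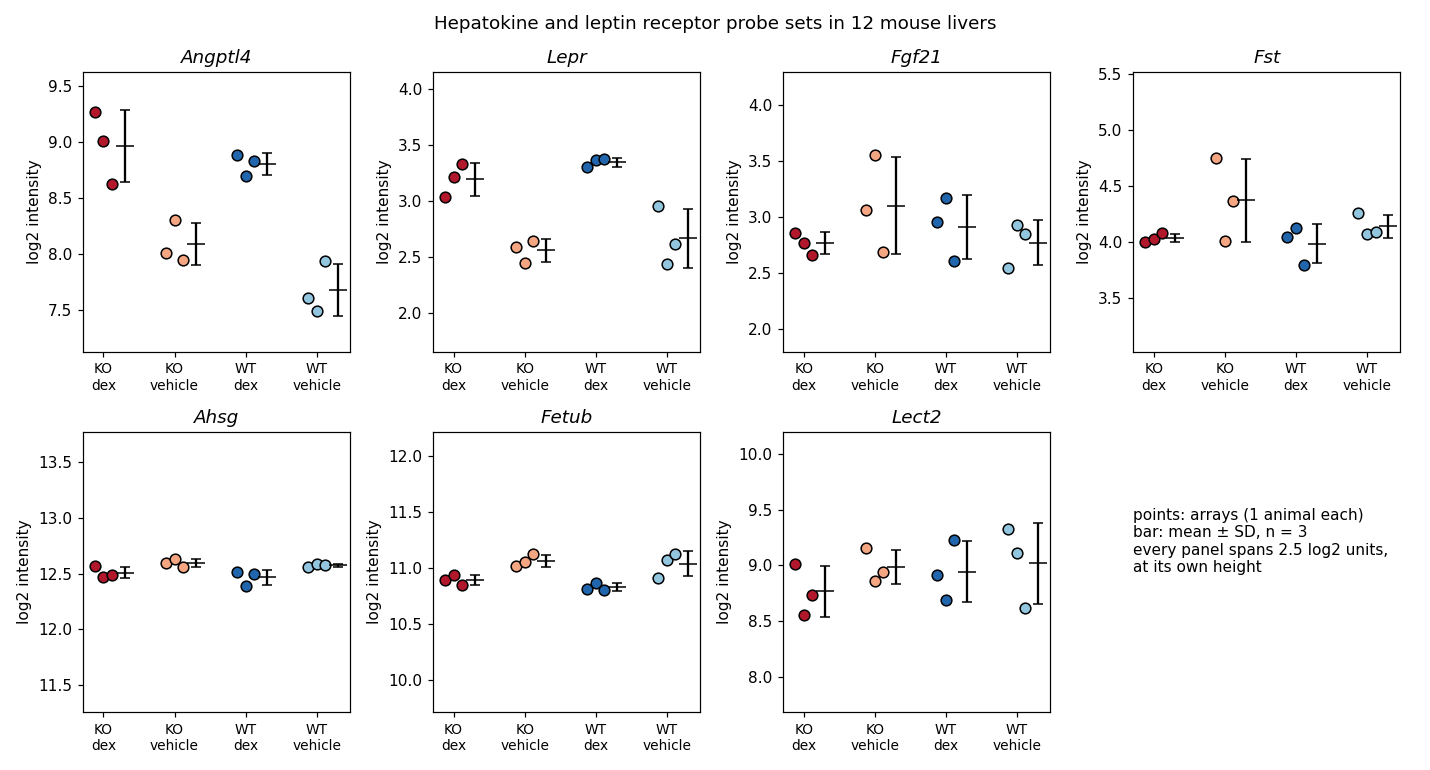
Log2 intensity of the 7 probe sets (vertical axes, each spanning 2.5 log2 units at its own height) in knockout and wild-type livers under dexamethasone (dex) or vehicle; points are arrays, 1 animal each, and bars are mean ± SD of n = 3. The dexamethasone arrays lie above the vehicle arrays of the same genotype for Angptl4 and Lepr.

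Angptl4, the secreted inhibitor of lipoprotein lipase (probe set 10450038), had levels of 9.27, 9.01 and 8.63 in knockout dexamethasone livers and 8.01, 8.30 and 7.95 in knockout vehicle livers. It had 8.89, 8.70 and 8.83 in wild-type dexamethasone livers and 7.61, 7.49 and 7.94 in wild-type vehicle livers. Every dexamethasone array lay above every vehicle array of either genotype. In the knockout the log2 change was 0.88 ± 0.16 (SE), with a 95% interval of 0.53 to 1.23 and an adjusted p of 0.00327. In wild type it was 1.13 ± 0.16, with an interval of 0.78 to 1.47 and an adjusted p of 0.000518. With the 4 pancreas arrays left out, the change was 0.81 in the knockout (adjusted p = 0.0313) and 0.86 in wild type (adjusted p = 0.113), where the call was lost with the single vehicle array at 7.94.

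The order of the 4 group means of Angptl4 was knockout dexamethasone (8.97 ± 0.32, SD), wild-type dexamethasone (8.81 ± 0.10), knockout vehicle (8.09 ± 0.19) and wild-type vehicle (7.68 ± 0.23). The 2 dexamethasone groups overlapped, and each of the other neighbours was separate. Under vehicle the 3 knockout arrays therefore lay above the 3 wild-type arrays, by 0.41 ± 0.16 (SE, interval 0.06 to 0.76). This did not pass the test over all genes (adjusted p = 0.627, unadjusted p = 0.0238), and without the 4 pancreas arrays the difference was 0.22 (adjusted p = 0.983). Angptl4 was 7.49 to 8.83 in the 4 pancreas arrays and 7.94 to 9.27 in the other 8, and both of its lowest values were in wild-type vehicle arrays with pancreas transcripts. The part of those transcripts in the genotype difference was not tested. Fat cells also express Angptl4, and the mean over 7 adipocyte markers was 3.61 to 3.87 in knockout dexamethasone livers, 3.37 to 3.51 in knockout vehicle livers, 3.73 to 3.91 in wild-type dexamethasone livers and 3.35 to 3.80 in wild-type vehicle livers. Of these markers, Adipoq (1.98 to 2.84) and Lep (2.39 to 2.84) lay below the median of every array, and Fabp4 (4.66 to 5.72), Lipe (4.70 to 5.56) and Cidec (3.52 to 6.15) above it, with Plin1 at 2.86 to 3.70 and Retn at 2.64 to 3.16. Under dexamethasone 2 of the 7 were called higher in the knockout and 1 in wild type, and 0 lower. Of all genes, 4.38% were called higher in the knockout and 4.57% in wild type. The part of fat cells in the change of Angptl4 was not tested.

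Lepr, the leptin receptor (probe set 10506301), had levels of 3.04, 3.21 and 3.33 in knockout dexamethasone livers and 2.59, 2.45 and 2.64 in knockout vehicle livers. It had 3.30, 3.37 and 3.37 in wild-type dexamethasone livers and 2.96, 2.44 and 2.62 in wild-type vehicle livers. The dexamethasone arrays lay above all vehicle arrays, with the narrowest gap between the lowest knockout dexamethasone array and wild-type vehicle 1. The log2 change was 0.64 ± 0.13 (SE) in the knockout, with an interval of 0.36 to 0.91 and an adjusted p of 0.00578, and 0.68 ± 0.13 in wild type, with an interval of 0.41 to 0.95 and an adjusted p of 0.00322. Without the 4 pancreas arrays it was 0.68 (adjusted p = 0.00965) and 0.72 (adjusted p = 0.0441), in the same order.

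The signal of Lepr was low throughout, at the 29.51 to 53.12 percentile of its array, where additive background can make intensity ratios smaller than RNA ratios. The sources used here do not say which splice forms of the receptor its probe set reads. The group means ran from wild-type dexamethasone (3.35 ± 0.04, SD) and knockout dexamethasone (3.19 ± 0.15) to wild-type vehicle (2.67 ± 0.26) and knockout vehicle (2.56 ± 0.10). Arrays of the 2 dexamethasone groups overlapped, as did those of the 2 vehicle groups. Endothelial cells are a further source of Lepr transcripts, and the mean over 12 endothelial markers was 6.75 to 6.93 in knockout dexamethasone livers, 6.75 to 6.90 in knockout vehicle livers, 6.64 to 6.75 in wild-type dexamethasone livers and 6.91 to 7.10 in wild-type vehicle livers. Of these 12 markers, 1 was called higher and 3 lower under dexamethasone in the knockout, and 1 higher and 5 lower in wild type. Of all genes, 8.29% were called in either direction in the knockout and 11.5% in wild type. The part of endothelial cells in the change of Lepr was not tested.

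Fgf21, the fasting hormone (probe set 10563344), had levels of 2.86, 2.77 and 2.67 in knockout dexamethasone livers and 3.07, 3.55 and 2.69 in knockout vehicle livers. It had 2.95, 3.18 and 2.61 in wild-type dexamethasone livers and 2.54, 2.93 and 2.85 in wild-type vehicle livers. All 4 groups overlapped, and the values lay at the 35.01 to 55.11 percentile of their arrays. The log2 change under dexamethasone was -0.34 ± 0.19 (SE) in the knockout (interval -0.76 to 0.08, adjusted p = 0.412) and 0.14 ± 0.19 in wild type (interval -0.28 to 0.56, adjusted p = 0.741). The group means ran from knockout vehicle (3.10 ± 0.43, SD) through wild-type dexamethasone (2.91 ± 0.29) and wild-type vehicle (2.77 ± 0.20) to knockout dexamethasone (2.77 ± 0.10). Fgf21 was 2.54 to 2.93 in the 4 pancreas arrays and 2.67 to 3.55 in the other 8, and without the 4 arrays its change was -0.54 in the knockout (adjusted p = 0.0789) and 0.22 in wild type (adjusted p = 0.723). The part of the pancreas transcripts in these values was not tested.

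**Figure D2:**
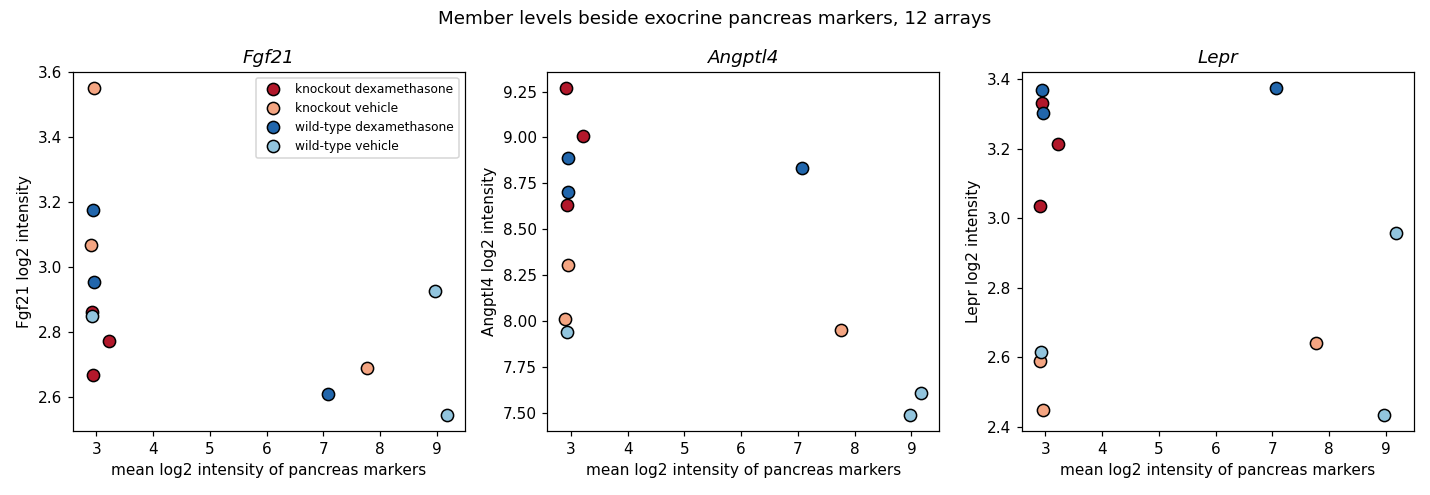
Log2 intensity of Fgf21, Angptl4 and Lepr (vertical axes) against the mean log2 intensity of 19 exocrine pancreas markers (horizontal axis) in 12 arrays, coloured by group. The 4 arrays at 7.07 to 9.17 on the horizontal axis hold 2 wild-type vehicle arrays, and the dexamethasone array among them has Angptl4 at 8.83 and Lepr at 3.37, where the other dexamethasone arrays have 8.63 to 9.27 and 3.04 to 3.37.

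Fst, which encodes the activin-binding protein follistatin (probe set 10412260), had levels of 4.004, 4.03 and 4.08 in knockout dexamethasone livers and 4.75, 4.01 and 4.36 in knockout vehicle livers. It had 4.04, 4.12 and 3.79 in wild-type dexamethasone livers and 4.26, 4.08 and 4.09 in wild-type vehicle livers. Knockout vehicle 1 was the highest array and wild-type dexamethasone 3 the lowest, and all groups overlapped. The change under dexamethasone was -0.34 ± 0.15 (SE) in the knockout (interval -0.67 to -0.01, adjusted p = 0.256) and -0.15 ± 0.15 in wild type (adjusted p = 0.615). It passed the test in the knockout when knockout vehicle 2, the lowest vehicle array of that genotype, was left out (-0.52, adjusted p = 0.0381). Without the 4 pancreas arrays the change was -0.34 (adjusted p = 0.397) in the knockout and -0.01 (adjusted p = 0.996) in wild type. The group means ran from knockout vehicle (4.37 ± 0.37, SD) through wild-type vehicle (4.14 ± 0.10) and knockout dexamethasone (4.04 ± 0.04) to wild-type dexamethasone (3.99 ± 0.17).

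Ahsg encodes fetuin-A, a plasma inhibitor of calcification (probe set 10434689). It had levels of 12.57, 12.47 and 12.49 in knockout dexamethasone livers and 12.60, 12.63 and 12.56 in knockout vehicle livers. It had 12.51, 12.39 and 12.50 in wild-type dexamethasone livers and 12.56, 12.59 and 12.57 in wild-type vehicle livers. The dexamethasone arrays lay below the vehicle arrays in wild type and overlapped them in the knockout. The change was -0.09 ± 0.08 (SE) in the knockout (interval -0.26 to 0.08, adjusted p = 0.649) and -0.11 ± 0.08 in wild type (interval -0.27 to 0.06, adjusted p = 0.464). These values are among the brightest on the array, at the 99.87 to 99.91 percentile, where intensity can be compressed.

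Fetub, which encodes fetuin-B, the inhibitor of the egg protease ovastacin (probe set 10434698), had levels of 10.89, 10.94 and 10.84 in knockout dexamethasone livers and 11.01, 11.05 and 11.12 in knockout vehicle livers. It had 10.81, 10.86 and 10.80 in wild-type dexamethasone livers and 10.91, 11.07 and 11.12 in wild-type vehicle livers. The dexamethasone arrays lay below the vehicle arrays in both genotypes without overlap. The change was -0.17 ± 0.08 (SE) in the knockout (adjusted p = 0.306) and -0.21 ± 0.08 in wild type (interval -0.39 to -0.03, adjusted p = 0.138), and neither passed the test. For both fetuin genes the group means ran in the order knockout vehicle, wild-type vehicle, knockout dexamethasone, wild-type dexamethasone, and each neighbouring pair overlapped. Without the 4 pancreas arrays the changes were -0.11 for Ahsg and -0.14 for Fetub in the knockout, and -0.12 for Ahsg and -0.29 for Fetub in wild type, with adjusted p-values of 0.338 to 0.763.

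Counted over the 7 genes, dexamethasone and vehicle arrays were fully separate for 3 in the knockout (Angptl4, Lepr and Fetub), against 24.3% of all genes, and for 4 in wild type (Angptl4, Lepr, Fetub and Ahsg), against 27% of all genes.

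Lect2, a chemotactic hepatokine (probe set 10409592), had levels of 9.01, 8.56 and 8.74 in knockout dexamethasone livers and 9.15, 8.86 and 8.94 in knockout vehicle livers. It had 8.91, 8.69 and 9.23 in wild-type dexamethasone livers and 9.33, 9.11 and 8.62 in wild-type vehicle livers. All groups overlapped, and their means ran from wild-type vehicle (9.02 ± 0.36, SD) through knockout vehicle (8.98 ± 0.15) and wild-type dexamethasone (8.94 ± 0.27) to knockout dexamethasone (8.77 ± 0.23). The change was -0.22 ± 0.18 (SE) in the knockout (adjusted p = 0.641) and -0.07 ± 0.18 in wild type (interval -0.47 to 0.32, adjusted p = 0.865). In wild type its sign turned without the 4 pancreas arrays (0.18, adjusted p = 0.781).

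**Figure D3:**
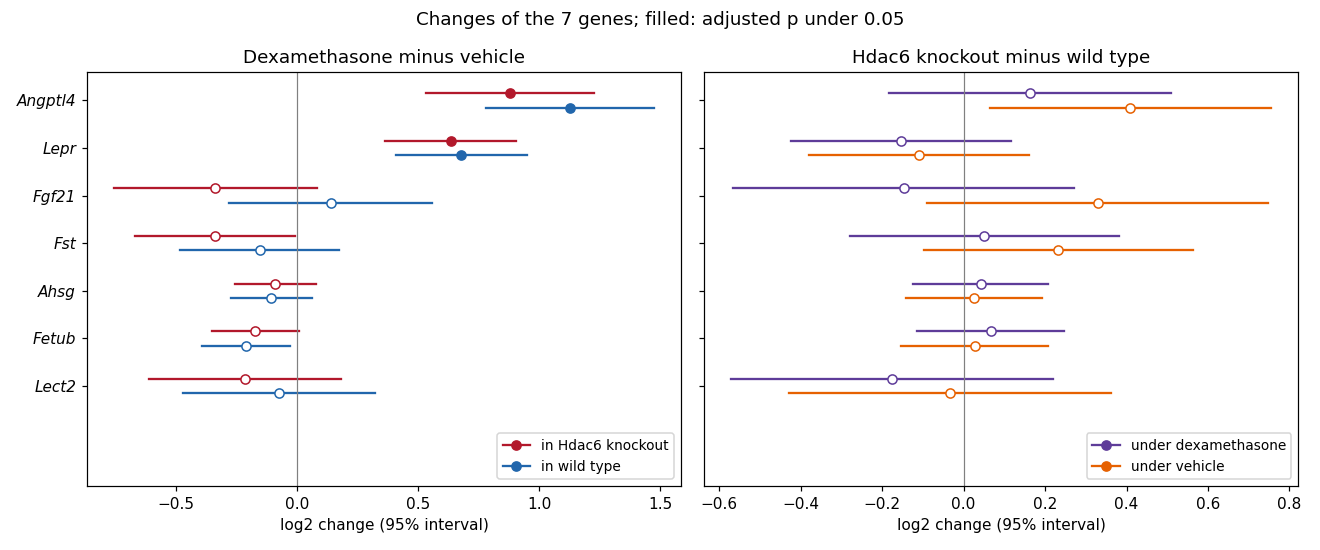
Log2 changes of the 7 genes (horizontal axes) with 95% intervals from the fit to 12 arrays, dexamethasone minus vehicle on the left and Hdac6 knockout minus wild type on the right; filled points passed the test. Angptl4 and Lepr are filled on the left in both genotypes, and 0 points are filled on the right.

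Loss of Hdac6 gave 0 calls among the 7 genes in limma under dexamethasone, against 0.0279% of all genes (5 genes), and 0 under vehicle, against 0.101% (18 genes). Under dexamethasone the changes ran from -0.18 for Lect2 to 0.16 for Angptl4, with 0 of the 7 genes separate between the genotypes, against 14% of all genes. Under vehicle they ran from -0.11 for Lepr to 0.41 for Angptl4, the 1 gene of the 7 whose arrays did not overlap, against 11.8% of all genes. Angptl4 was also the 1 gene of the 7 with an unadjusted p under 0.05 in either comparison. The intervals leave room for moderate differences: for Fgf21 under vehicle, for example, 0.33 ± 0.19 (SE) with an interval of -0.09 to 0.75, and for Lepr under dexamethasone -0.15 ± 0.13 with an interval of -0.42 to 0.12.

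Whether the drug's effect differed between the genotypes was tested as an interaction, the effect in the knockout minus that in wild type. Limma called 0 of the 7 genes and 0 of all 17904 (0%), of which 1109 had an unadjusted p under 0.05. It was -0.25 ± 0.23 (SE) for Angptl4 (adjusted p = 0.909) and -0.04 ± 0.18 for Lepr (adjusted p = 0.986). The greatest of the 7 was that of Fgf21, at -0.48 ± 0.27 (adjusted p = 0.834). Ahsg, at 0.02 ± 0.11, and Fetub, at 0.04 ± 0.12, had the narrowest errors.

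The genes that work with each hepatokine came from lists. A list of FGF receptor genes and the beta-klotho gene had 5 genes tested, and which of the receptors FGF21 uses was not examined. Of these, 0 rose and 1, Fgfr4, fell in the knockout, where 8.29% of all genes were called in either direction. In wild type 0 rose and 3 fell, where 11.5% of all genes were called. Their median change was -0.519 in the knockout, where that of all genes was -0.009, and -0.525 in wild type, where it was 0.00957. Fgfr4, the main FGF receptor of hepatocytes, fell by 0.54 ± 0.10 (SE, adjusted p = 0.00485) in the knockout and by 0.52 ± 0.10 (adjusted p = 0.00475) in wild type. Klb, which encodes beta-klotho, the co-receptor that FGF21 needs, averaged 6.53 ± 0.18 (SD) in knockout dexamethasone livers and 7.09 ± 0.30 in knockout vehicle livers, a change of -0.57 (adjusted p = 0.0587). It averaged 6.45 ± 0.25 in wild-type dexamethasone livers and 7.22 ± 0.22 in wild-type vehicle livers, a change of -0.77 ± 0.17 (SE, adjusted p = 0.00945). Fgfr2 changed by -0.52 (adjusted p = 0.0743) in the knockout and by -0.70 (adjusted p = 0.0134) in wild type. The wild-type call of Fgfr2 was lost when either wild-type dexamethasone 1 or wild-type vehicle 3 was left out (-0.59 to -0.58). In wild type Fgfr1 changed by -0.12 (adjusted p = 0.705), with overlapping arrays, and Fgfr3 by -0.50 (adjusted p = 0.115). Neither was called in the knockout, and the interaction of Fgfr1 was 0.39 ± 0.21 (SE, adjusted p = 0.829). Without the 4 pancreas arrays the median change was -0.42 in the knockout and -0.505 in wild type. Fgfr4 (-0.51), Klb (-0.76) and Fgfr2 (-0.94) lost their wild-type calls in that fit.

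A list of angiopoietin-like genes, lipase genes and cofactors of lipoprotein lipase had 10 genes tested. Of these, 1 rose, 2 fell and 7 were not called in each genotype, where 8.29% of all genes were called in the knockout and 11.5% in wild type, and the median change was -0.0381 in the knockout and -0.00619 in wild type. Lipg, which encodes endothelial lipase, was 5.10-fold higher in the knockout (log2 change 2.35 ± 0.27, SE, adjusted p = 8.56e-05) and 3.67-fold higher in wild type (1.87 ± 0.27, adjusted p = 0.000506). Lpl, the lipoprotein lipase that Angptl4 inhibits, averaged 6.07 ± 0.27 (SD) in knockout dexamethasone livers and 6.62 ± 0.18 in knockout vehicle livers, a change of -0.55 (adjusted p = 0.0565). It averaged 5.31 ± 0.27 in wild-type dexamethasone livers and 6.35 ± 0.18 in wild-type vehicle livers, a change of -1.03 ± 0.16 (SE, adjusted p = 0.00111). Macrophages also express Lpl, and the mean over 11 Kupffer cell markers was 6.63 to 7.52 in knockout dexamethasone livers, 6.73 to 7.13 in knockout vehicle livers, 5.98 to 6.45 in wild-type dexamethasone livers and 6.88 to 7.60 in wild-type vehicle livers. Of these 11 markers, 1 was called higher and 0 lower under dexamethasone in the knockout, and 1 higher and 8 lower in wild type. Of all genes, 8.29% were called in either direction in the knockout and 11.5% in wild type. The median change of these markers was -0.0288 in the knockout, where Lpl changed by -0.55. It was -0.945 in wild type, where Lpl changed by -1.03. The part of Kupffer cells in the change of Lpl was not tested. Angptl8, a feeding-induced relative of Angptl4, fell by 1.63 ± 0.25 in the knockout (adjusted p = 0.000927) and by 1.36 ± 0.25 in wild type (adjusted p = 0.00319). Apoa5, an activator of lipoprotein lipase, fell by 0.55 in the knockout (adjusted p = 0.0209) but lost that call in 4 of the 12 fits without 1 array (-0.53 to -0.48), and its change in wild type was 0.04 (adjusted p = 0.914). Without the pancreas arrays the median change was -0.0189 in the knockout and 0.137 in wild type. Lipg (1.60) and Lpl (-0.96) lost their wild-type calls in that fit.

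Angptl4 and Fgf21 are both known targets of the nuclear receptor PPAR-alpha, which senses fatty acids. The list of other targets also holds Ppara, the gene of the receptor itself. Of 16 other PPAR-alpha targets tested, 3 rose and 1 fell in the knockout (median 0.109), against 8.29% of all genes called in either direction, and 7 rose and 1 fell in wild type (median 0.357), against 11.5%. Acot1, a fatty acyl-CoA thioesterase, was 2.05-fold higher in the knockout (1.03 ± 0.11, SE, adjusted p = 3.68e-05) and 4.04-fold higher in wild type (2.02 ± 0.11, adjusted p = 9.03e-08). Under dexamethasone Acot1 averaged 6.15 ± 0.16 (SD) in the knockout and 6.87 ± 0.12 in wild type, and it was the 1 gene of the pathway lists called between genotypes (-0.72 ± 0.11, SE, adjusted p = 0.0444). That call was lost without the 4 pancreas arrays (-0.65, adjusted p = 0.303) and in 10 of the 12 fits without 1 array (-0.79 to -0.65). Cpt1a, the gate of fatty acid entry into mitochondria, rose by 0.40 in the knockout (adjusted p = 0.0458), where 7 of 12 fits without 1 array lost the call (0.35 to 0.44), and by 0.48 in wild type (adjusted p = 0.0154), lost in 2 of 12 (0.40 to 0.41). The fatty acid hydroxylase Cyp4a10 rose by 0.93 in the knockout (adjusted p = 0.0138) and by 1.19 in wild type (adjusted p = 0.00238). The knockout call of Cyp4a10 was lost without knockout vehicle 3 or knockout dexamethasone 1 (0.74 to 0.78). Plin2, which coats lipid droplets, fell by 1.17 in the knockout (adjusted p = 0.0221), a call lost without knockout vehicle 1 or 2 (-1.15 to -1.06). Its change in wild type was -0.76 (adjusted p = 0.116). In wild type Cyp4a14 rose by 2.28 (adjusted p = 0.00983) and Cyp4a31 by 1.43 (adjusted p = 0.00436). Acaa1b was the gene that fell there, at -0.60 (adjusted p = 0.0286), a call lost in 4 of 12 fits without 1 array (-0.64 to -0.45). Without the pancreas arrays the median change was 0.106 in the knockout and 0.333 in wild type. Of the genes named, Cpt1a (0.36), Cyp4a10 (0.78) and Plin2 (-1.295) lost their knockout calls in that fit. Cpt1a (0.36) and Acaa1b (-0.64) lost their wild-type calls.

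Follistatin binds activins, and 16 genes of activins, their relatives, receptors and signal carriers were tested. Of these, 0 rose and 4 fell in the knockout (median -0.161), against 8.29% of all genes called, and 1 rose and 5 fell in wild type (median -0.0614), against 11.5%. Inhba, the activin A subunit, averaged 3.95 ± 0.31 (SD) in knockout dexamethasone livers and 5.38 ± 0.49 in knockout vehicle livers, a change of -1.43 ± 0.23 (SE, adjusted p = 0.00122). It averaged 3.75 ± 0.34 in wild-type dexamethasone livers and 4.73 ± 0.08 in wild-type vehicle livers, a change of -0.98 ± 0.23 (adjusted p = 0.0131) that was no longer called without wild-type dexamethasone 3 (-0.81). Inhbe, the activin E subunit made mainly by liver, fell by 1.07 in the knockout (adjusted p = 0.0119) and by 0.92 in wild type (adjusted p = 0.0218). The call of Inhbe was lost in 2 of the 12 fits without 1 array in the knockout (-0.94 to -0.85) and in 3 of 12 in wild type (-0.91 to -0.69). The receptor gene Acvr1b fell by 0.60 (adjusted p = 0.00044) in the knockout and by 0.64 (adjusted p = 0.000234) in wild type, and Smad3, which carries the activin signal to the nucleus, by 0.79 (adjusted p = 0.00869) and 1.20 (adjusted p = 0.000397). Inhbb, the activin B subunit, rose by 0.63 in wild type (adjusted p = 0.0169), a call lost in 3 of 12 fits without 1 array (0.59 to 0.62), and the follistatin relative Fstl1 fell by 0.37 there (adjusted p = 0.0437), lost in 8 of 12 (-0.40 to -0.27). Without the pancreas arrays the median change was -0.151 in the knockout and 0.013 in wild type. Inhba (-0.91), Inhbb (0.65) and Fstl1 (-0.33) lost their wild-type calls in that fit.

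**Figure D4:**
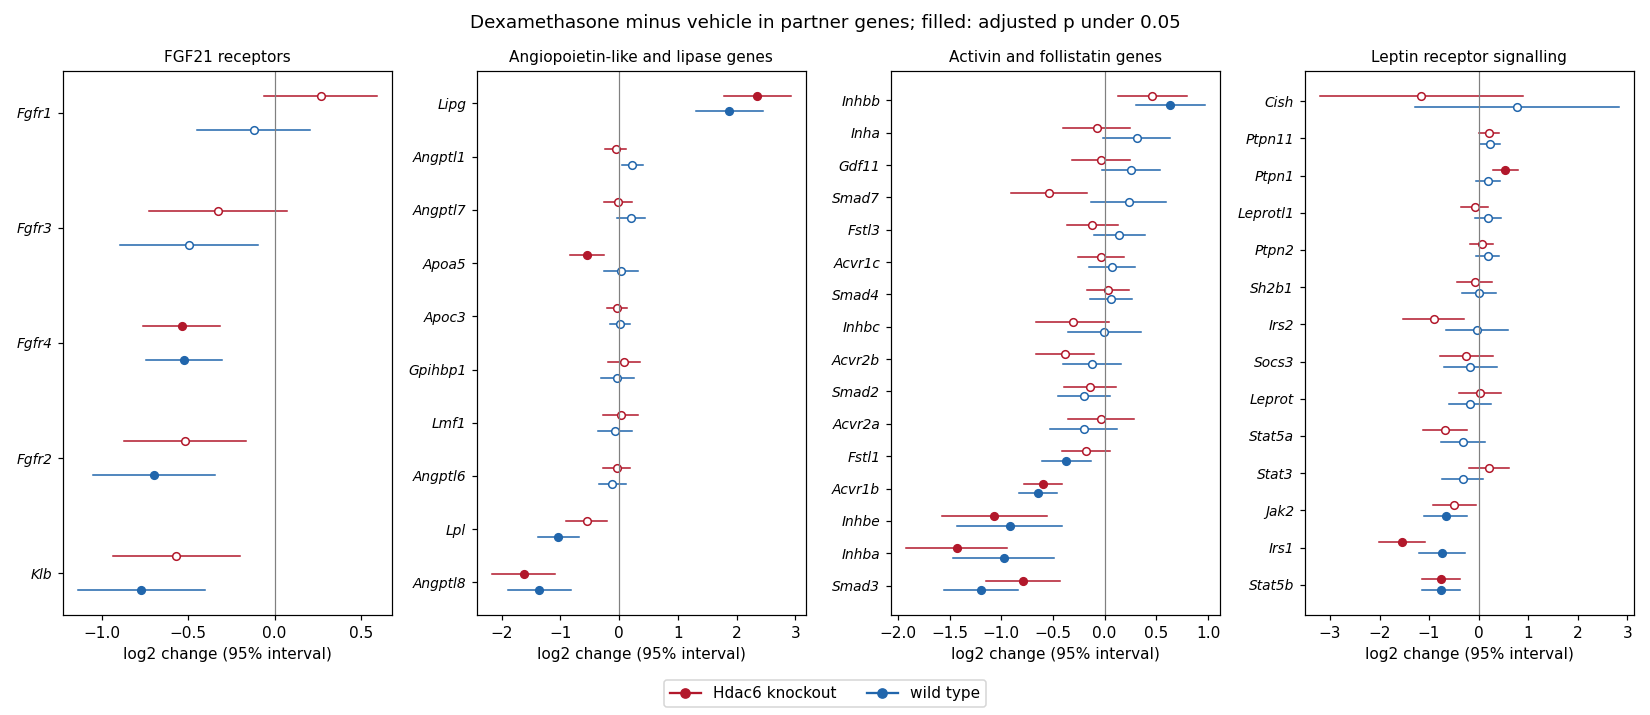
Log2 change under dexamethasone (horizontal axes) with 95% intervals for the genes of 4 partner lists, in the Hdac6 knockout and in wild type; filled points passed the test. Fgfr4, Angptl8, Inhba, Inhbe, Acvr1b, Smad3, Irs1 and Stat5b are filled below 0 in both genotypes, and Lipg above 0 in both.

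Of 14 genes that pass on or curb the leptin signal, 1 rose and 2 fell in the knockout (median -0.165), against 8.29% of all genes called, and 0 rose and 3 fell in wild type (median -0.0997), against 11.5%. The transcription factor gene Stat5b fell by 0.76 in the knockout (adjusted p = 0.0166) and by 0.76 in wild type (adjusted p = 0.0128). Its knockout call was lost without knockout vehicle 1 or knockout dexamethasone 3 (-0.60 to -0.59), and its wild-type call without wild-type vehicle 1 (-0.67). Irs1, an adaptor shared with the insulin receptor, fell by 1.55 in the knockout (adjusted p = 0.000412) and by 0.74 in wild type (adjusted p = 0.0418), where 9 of 12 fits without 1 array lost the call (-0.80 to -0.58). Jak2, the kinase bound to the receptor, fell by 0.66 in wild type (adjusted p = 0.049) and lost that call in 10 of 12 such fits (-0.66 to -0.45). Ptpn1, the phosphatase that acts on Jak2, rose by 0.54 in the knockout (adjusted p = 0.00932), a call lost without knockout dexamethasone 2 (0.46). Without the pancreas arrays 0 rose and 3 fell in the knockout, and 0 were called in wild type.

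Fgf21 and Gdf15 are also known targets of the integrated stress response, through the transcription factor ATF4. Of 14 genes of that response, 1 rose and 0 fell in the knockout (median -0.00197), against 8.29% of all genes called, and 4 rose and 1 fell in wild type (median 0.151), against 11.5%. Cebpb, a transcription factor gene that also answers to glucocorticoids, rose by 1.41 ± 0.14 (SE, adjusted p = 2.76e-05) in the knockout and by 0.95 ± 0.14 (adjusted p = 0.000663) in wild type. Asns, asparagine synthetase, changed by 0.68 in the knockout (adjusted p = 0.291) and rose by 1.73 ± 0.32 in wild type (adjusted p = 0.00363). Trib3, a pseudokinase gene downstream of ATF4, fell by 1.14 in wild type (adjusted p = 0.041) and lost that call in 7 of 12 fits without 1 array (-1.21 to -0.93). Ppp1r15a, a subunit of the phosphatase that ends the response, rose by 0.30 in wild type (adjusted p = 0.0326), with 5 of 12 such fits without the call (0.28 to 0.31). Chac1, a glutathione-degrading enzyme gene, rose by 0.68 in wild type (adjusted p = 0.0413), lost in 7 of 12 (0.56 to 0.68). Without the pancreas arrays the median change was 0.04 in the knockout and 0.192 in wild type. Trib3 (-1.59), Ppp1r15a (0.33) and Chac1 (1.055) lost their wild-type calls in that fit. The receptor genes of GDF15 gave 0 calls, and Gfral averaged 2.07 ± 0.05 (SD) in knockout dexamethasone livers, 2.06 ± 0.14 in knockout vehicle livers, 2.17 ± 0.11 in wild-type dexamethasone livers and 2.14 ± 0.08 in wild-type vehicle livers, near the 20th percentile of the arrays.

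Relatives and receptors of the fetuins and of LECT2 gave 0 calls in either genotype. Of all genes, 8.29% were called in the knockout and 11.5% in wild type, so 0 calls in such short lists is no result about them. Of 7 cystatin superfamily genes tested, the median change was -0.0352 in the knockout and -0.0727 in wild type. In the RefSeq gene order of chromosome 16, Ahsg and Fetub stand next to each other and are followed by Hrg, Kng2 and Kng1, which encode histidine-rich glycoprotein and the kininogens. Their changes were -0.01 for Hrg, -0.04 for Kng2 and -0.05 for Kng1 in the knockout, and 0.05, -0.07 and -0.10 in wild type in the same gene order. Met, the hepatocyte growth factor receptor that LECT2 binds, changed by -0.39 ± 0.13 (SE, adjusted p = 0.0862) in the knockout and by -0.27 ± 0.13 (adjusted p = 0.217) in wild type. Tie1, the endothelial LECT2 receptor, changed by 0.07 (adjusted p = 0.832) and -0.23 (adjusted p = 0.227).

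Likeness of profile was measured as the root mean square difference of log2 values over the 12 arrays after each gene's own mean was subtracted, among 16776 named genes. It was taken for Angptl4 and Lepr, whose group means spanned at least 0.5. Nearest to Angptl4 were the carnitine transporter gene Slc22a5 (0.185), Arhgap32 (0.191) and Ranbp9 (0.193), where Angptl4 itself departed from its mean by 0.557 in the same measure. Nearest to Lepr were the mitochondrial folate enzyme gene Mthfd2 (0.114), the splicing factor gene Sf3b1 (0.118) and the ubiquitin ligase gene Ubr2 (0.122), against 0.36 for Lepr itself. Slc22a5 averaged 6.55 ± 0.51 (SD) in knockout dexamethasone livers, 5.77 ± 0.19 in knockout vehicle livers, 6.49 ± 0.16 in wild-type dexamethasone livers and 5.52 ± 0.30 in wild-type vehicle livers. Mthfd2 averaged 4.11 ± 0.21, 3.49 ± 0.19, 4.18 ± 0.13 and 3.47 ± 0.19 in the same groups. These genes were chosen on the arrays they are described with, so their likeness is a description without a test.

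**Figure D5:**
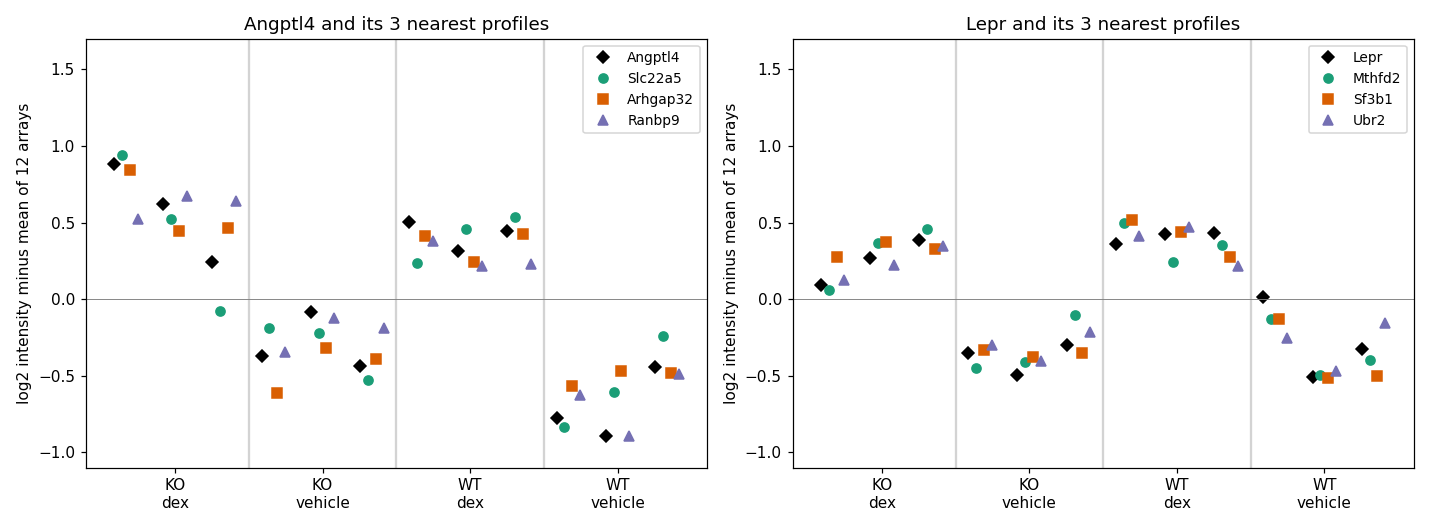
Log2 intensity minus the gene's mean over 12 arrays (vertical axis) for Angptl4 and Lepr (black diamonds) and the 3 genes nearest to each, by group, with 3 arrays a group drawn side by side. The points lie mostly below 0 in the vehicle groups and above 0 in the dexamethasone groups, except Slc22a5 in knockout dexamethasone 3. Points of the same array can lie apart, as from -0.079 (Slc22a5) to 0.64 (Ranbp9) in that array.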

How the data were processed

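Affymetrix whole-transcript arrays measured the liver RNA of 12 mice, 1 array each. The authors deposited log2 intensities per probe set, made in R 2.10.0 with affy per the submitters' processing notes. Sorted, the arrays' values depart from their mean by at most 0.215, so the arrays had similar distributions. The sources used here do not say how background, scaling and summarisation were done. Compression at either end of the intensity scale can make fold changes too small.

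Groups came from the sample titles. Symbols came from the probe annotation, with 1 gene per probe set; 1321 of 34760 probe sets with several symbols were left out. For a gene with several probe sets the highest mean was taken. A gene was tested if above the 20th percentile of its array on at least 3 arrays. A mean per group was fitted in limma 3.58.1 (R 4.3.3, package data.table version 1.17.8) to the 12 arrays together, with 8 residual and 5.07 prior degrees of freedom, and p-values were Benjamini-Hochberg adjusted over 17904 genes in each of 5 comparisons at 0.05. The number of arrays limits the precision, and the median residual SD was 0.143. The method was tested on simulated data. Sequences were read in Python 3.11.15 with pandas 2.3.3, and figures drawn with matplotlib 3.10.9.

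The genes, the lists and the rule for named genes were chosen with earlier results of these data known. The rule takes the hepatokine genes, Hdac6, up to 4 genes of a list with the smallest p, receptors or partners of a hepatokine, and the 3 nearest profiles of a gene whose group means span at least 0.5. Inhbe, Fstl1, Cpt1a, Chac1, Acaa1b and Plin2 in wild type were named outside it, after their values were seen. Alternatives were other filters, quantile and median scaling, mean probe sets, trended robust variances, array weights, a replicate block, fits to the groups compared alone, leaving out 4 arrays with pancreas transcripts and leaving out each array.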

Additional observations from a re-analysis of the deposited data

How the results depend on the processing

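Without the 4 arrays with pancreas transcripts, 1 of the 7 genes instead of 2 was called for dexamethasone in wild type (Angptl4 0.86, adjusted p = 0.113), where all genes called numbered 559 instead of 2064. Of 758 log2 changes recomputed under an alternative, 729 kept their direction and call, 27 turned in sign, 1 lost its call and 1 gained it. Fgf21 did not pass the filter at the 50th percentile and has no value under that alternative. None of the 27 was a called change. Without the 4 arrays, Lect2 in wild type (0.18), Lect2 (0.39) and Fetub (-0.092) in knockout against wild type under vehicle, and Fst in that comparison under dexamethasone (-0.047) turned. Median centring turned Ahsg (-0.0071) and Fetub (-0.0055) under vehicle and the interaction of Lepr (0.028), quantile scaling that interaction (0.014) and array weights Lect2 under vehicle (0.026). Leaving out each array in turn gave Angptl4 0.73 to 1.05 in the knockout and 1.03 to 1.26 in wild type, and Lepr 0.57 to 0.71 and 0.56 to 0.82, all called. Fst under dexamethasone in the knockout ran from -0.52 to -0.15 and was called in 1 of 12 fits. Ranges that crossed 0 were those of Lect2 under dexamethasone in wild type (-0.27 to 0.079); of Fetub (-0.036 to 0.071), Lect2 (-0.23 to 0.12) and Lepr (-0.23 to 0.033) in knockout against wild type under vehicle; of Fst under dexamethasone (-0.047 to 0.12); and of the interactions of Fst (-0.37 to 0.0052), Ahsg (-0.021 to 0.038), Fetub (-0.0050 to 0.10), Lect2 (-0.29 to 0.058) and Lepr (-0.19 to 0.073). The cause of these changes was not tested. Calls over all genes ran from 5 to 28 for knockout against wild type under vehicle when 1 array was left out, and from 1 to 37 under dexamethasone, with 37 without knockout dexamethasone 3. The replicate block kept the counts of the 7 genes at 2 in the knockout, 2 in wild type and 0 between genotypes, and the interaction at 0. Deviations of same-numbered arrays correlated at -0.537 to 0.356 over 18 pairs, 3 of them above 0.1. Both ends of that range are pairs with knockout vehicle 3, an array with pancreas transcripts, so these values cannot settle pairing. The labels name separate animals, and the numbers were not taken to pair them. With 3 animals a group, changes the size of those of Fgf21 and Fst cannot be settled, and the low signals of Lepr and Fgf21 lie close to background.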

Other observations

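Most other secreted liver factors were not called under dexamethasone. Their list includes Inhbe, Angptl6 and Angptl8, which were also counted in lists above. Inhbe and Angptl8 are among those that fell in both genotypes. Of 33 tested, 2 rose, 4 fell and 27 were not called in the knockout (median -0.0426), where 8.29% of all genes were called, and 1 rose, 7 fell and 25 were not called in wild type (median -0.0966), where 11.5% were. Hjv, the hepcidin regulator hemojuvelin, fell by 1.13 ± 0.13 (SE) in the knockout (adjusted p = 8.43e-05) and by 0.97 ± 0.13 in wild type (adjusted p = 0.000265). Enho, which encodes the peptide adropin, fell by 0.75 in the knockout (adjusted p = 0.00158) and by 0.52 in wild type (adjusted p = 0.0146), where 3 of 12 fits without 1 array lost the call (-0.48 to -0.43). Igfbp1, a glucocorticoid-responsive binding protein of insulin-like growth factors, averaged 9.84 ± 1.41 (SD) in knockout dexamethasone livers and 7.72 ± 1.05 in knockout vehicle livers, with overlapping arrays and an adjusted p of 0.041 that was lost in 8 of 12 fits without 1 array (1.55 to 2.12). It averaged 9.62 ± 0.18 in wild-type dexamethasone livers and 6.71 ± 0.46 in wild-type vehicle livers, a change of 2.91 ± 0.59 (SE, adjusted p = 0.00561). The matrix protein gene Smoc1 rose by 0.60 in the knockout (adjusted p = 0.0077). Without the 4 pancreas arrays the median change was -0.0304 in the knockout and -0.0832 in wild type. Igfbp1 lost its call in the knockout (1.81) and in wild type (2.35) in that fit, and Hjv in wild type (-0.75).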
